A study of Mus musculus with 3 samples.

Results

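The chromatoid body and piRNA pathway genes followed here are 10 of the 31053 genes of the count tables: Piwil1, Piwil2, Tdrd1, Tdrd5, Tdrd6, Tdrd7, Tdrkh, Mael, Rnf17 and Mov10l1. They were found by their symbols, all 10 of them. Their unique molecular identifiers (UMIs, each the tag of 1 captured transcript) were followed from spermatogonia (SG) through spermatocytes (SPs) to round spermatids (RSs) and elongated spermatids (ESs).

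PIWI proteins bind small RNAs called piRNAs, which silence transposons in the male germ line and, at the pachytene stage of meiosis, arise in great number from long precursor transcripts. The precursors are cut at the surface of mitochondria, in the granules between them known as intermitochondrial cement, where Tudor domain proteins hold the PIWI proteins by their methylated arginines. In RSs many of the same proteins gather in the chromatoid body, a cytoplasmic granule without a membrane that holds RNA. GRTH, the RNA helicase encoded by Ddx25, is another protein of that body.

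Testicular cells were dispersed from the seminiferous tubules of C57BL/6 mice, aged 8 weeks by the labels, and run on a Chromium 3′ droplet system with 7000 cells loaded for each genotype. The groups were wild type (WT), GRTH-KO (KO), in which the Grth gene is knocked out, and GRTH-KI (KI), transgenic mice that carry human GRTH with a mutation, made as a model without the phosphorylated form of the protein. No drug or hormone was given to any group. Each group was 1 library, for which the labels name a single mouse, whereas the study's methods speak of pooled testes and a wider age range. With 1 library per group no difference between genotypes could be tested. A difference between genotypes cannot be told apart from one between mice or droplet runs, and every interval given here is a 95% interval for counting error only.

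The start sites of 7 members could be shown from RefSeq (GRCm38.p6), with a window from 250 bases before to 50 after each transcript start. MYBL1, the transcription factor that turns on pachytene piRNA precursors and genes of the pathway, binds variants of the MYB motif, so GGCAGTT was searched on both strands as 1 of its forms. It stood in 1353 of all 32851 windows (4.12%) and in 2 of the 11 windows of members. Both are printed 5′ to 3′ with the motif in capitals, since they are the only member windows that held it.
Piwil1, chr5:128735996-128736295, plus strand, motif 75 bases before the start: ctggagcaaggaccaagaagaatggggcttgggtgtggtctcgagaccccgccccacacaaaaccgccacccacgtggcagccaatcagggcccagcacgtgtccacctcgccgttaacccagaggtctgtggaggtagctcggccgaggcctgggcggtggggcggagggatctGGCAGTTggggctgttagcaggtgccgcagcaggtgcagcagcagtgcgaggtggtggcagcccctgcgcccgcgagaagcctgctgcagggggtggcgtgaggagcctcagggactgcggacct
Tdrd7, chr4:45965085-45965384, plus strand, motif 83 bases before the start: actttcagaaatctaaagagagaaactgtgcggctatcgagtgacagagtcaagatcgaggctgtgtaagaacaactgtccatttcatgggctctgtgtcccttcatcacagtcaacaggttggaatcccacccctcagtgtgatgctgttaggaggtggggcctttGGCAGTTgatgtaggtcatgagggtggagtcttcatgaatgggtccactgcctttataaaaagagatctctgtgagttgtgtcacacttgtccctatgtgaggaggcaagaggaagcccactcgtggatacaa
The Piwil1 window lies within the span of the gene in GENCODE M21, which begins further upstream. Tdrd7 had another pair of windows without the motif, and the windows of Tdrd1, Tdrd5, Tdrkh, Mael and Mov10l1 held none. A match is a stretch of letters and not a site shown to be bound.

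After cell calling and filters 5856 WT, 4044 KO and 1570 KI cells were kept, with medians of 5142.5, 4028.5 and 11751 UMIs. Clusters were named from marker genes, with the ending -like, and the members and the other pathway genes were left out of the genes used to cluster. SG-like cells numbered 37, 39 and 23 in WT, KO and KI, leptotene/zygotene-like cells 148, 190 and 105, and pachytene-like cells 239, 355 and 150. Late SP-like cells numbered 982, 1176 and 348, RS-like cells 1193, 1155 and 451, and ES-like cells 2275, 279 and 141. The leptotene/zygotene-like class held an early cluster (20) and a later one (22), which held 69.4% (WT), 72.4% (KO) and 75.5% (KI) of its UMIs. Class levels thus rest mostly on cluster 22. There 6 of the 10 leptotene/zygotene markers were above the other cells, against 10 in cluster 20. The pachytene marker Ldhc already reached 4249 CPM (UMIs of the gene per 1000000 UMIs of the class) in cluster 22. The late SP-like class likewise reached toward spermatids, since its clusters 3 and 7 held the RS marker Acrv1 at 172 and 396 CPM. Ddx25 fitted the KO label, with 0.512 CPM in KO pachytene-like cells (6 UMIs) against 215 CPM in WT (1533 UMIs). KI pachytene-like cells held 98.3 CPM, and the KI label gives no level to set this against. Cell barcodes kept in both of a pair of libraries numbered 16 for WT and KO, 36 for WT and KI and 8 for KO and KI.

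RNA outside cells carried members too. In the empty barcodes, which held a mean of 183, 199 and 170.1 UMIs each in WT, KO and KI, Mael made up 343 to 524 CPM and Piwil1 82.4 to 145 CPM. Leydig-like cells held 0 to 33.7 CPM of Piwil1, 0 to 4.81 CPM of Mov10l1 and 23.0 to 69.8 CPM of Mael. Sertoli-like cells, with medians of 1478 to 1695 UMIs, held more germ cell RNA, with Piwil1 at 117 to 148 CPM and Mael at 369 to 579.7 CPM. The part of this RNA in the levels of each member was not tested. Levels that did not exceed those of the empty barcodes of the same library are named for each member. Cells held far more UMIs than empty barcodes, with late SP-like medians of 10999, 9066 and 27859.5 and RS-like medians of 4108, 3321 and 7287. A CPM below that of the empty barcodes therefore compares make-up only and does not show that a level is free RNA.

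**Figure D1:**
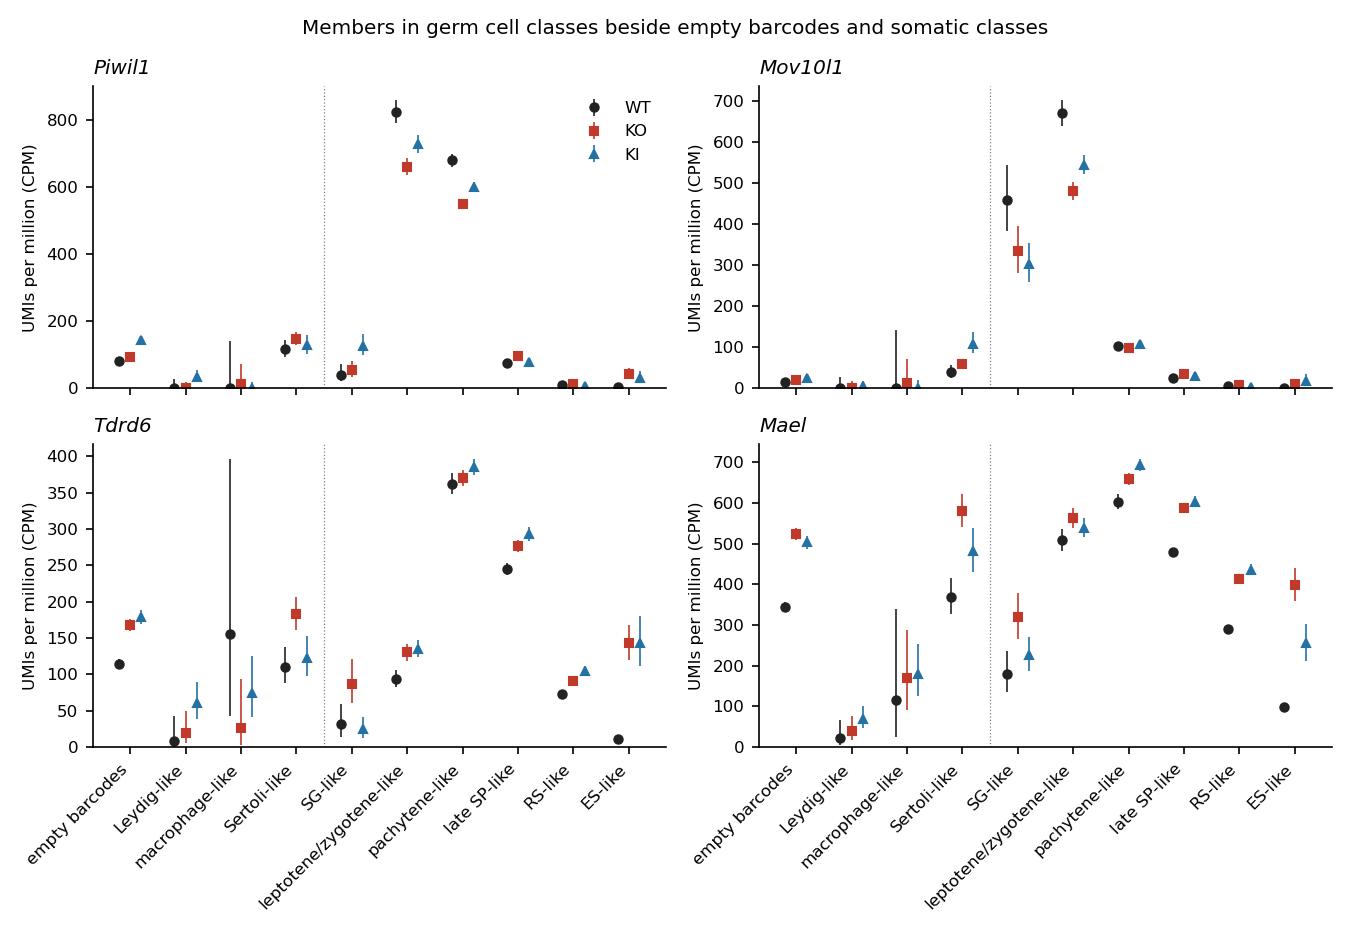
Level of Piwil1, Mov10l1, Tdrd6 and Mael (vertical axis, CPM) in empty barcodes, 3 somatic classes and 6 germ cell classes of the WT (circles), KO (squares) and KI (triangles) libraries. Bars are exact Poisson 95% intervals, for counting error only. Piwil1 and Mov10l1 stood above the empty barcodes in leptotene/zygotene-like and pachytene-like cells of every library, whereas Piwil1 in RS-like cells, at 5.98 to 13.3 CPM, lay below them.

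Piwil1 encodes MIWI, the PIWI protein of pachytene SPs and spermatids (ENSMUSG00000029423, chr5:128702524-128755474 on GRCm38). Leptotene/zygotene-like cells of WT held it at 824 CPM, those of KO at 662 and those of KI at 729, and pachytene-like cells at 680.1, 549.7 and 602 CPM. These ranges over the 3 libraries overlapped, and the late SP-like range stood apart below them, with 75.0, 95.4 and 79.3 CPM against 82.4, 94.8 and 145 CPM in the empty barcodes. RS-like cells held 10.0, 13.3 and 5.98 CPM. The leptotene/zygotene-like peak lay in cluster 22, at 1141, 894 and 954 CPM, since cluster 20 held 106, 53.8 and 36.9 CPM, less than the Sertoli-like cells. Cluster 22 bordered on pachytene, with Ldhc at 4249 CPM against 677 in cluster 20. It shared the leading genes Piwil1, Gm14244 and Cyp19a1 with pachytene-like cluster 6. With a lower cluster resolution and without integration of the libraries Piwil1 was highest in pachytene-like cells. A peak of Piwil1 before pachytene is therefore not shown. Cells with a Piwil1 UMI made up 94.6% of WT (95% exact interval 90.9 to 97.1), 93.2% of KO and 91.3% of KI pachytene-like cells. In RS-like cells they made up 8.47%, 9.09% and 12.0%. After thinning to 2000 UMIs per cell the RS-like shares were 3.19%, 3.56% and 2.41%, below the 11.5%, 18.9% and 13.7% of Sertoli-like cells. Only cells of at least that depth entered, which were 835 of 1193, 806 of 1155 and 357 of 451 RS-like cells. Of Sertoli-like cells they were 78 of 195, 103 of 266 and 36 of 84, the deeper minority of that class. Leydig-like cells, 15 to 21 per library at that depth, gave 0%, 0% and 3.94%. The levels of SG-like cells, at 41.4, 54.5 and 127 CPM from 12, 22 and 68 UMIs, did not exceed those of the empty barcodes in any library.

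Piwil2 encodes MILI, the PIWI protein that acts from before birth to the RS stage (ENSMUSG00000033644, chr14:70372477-70429383). It was present earlier than Piwil1, since SG-like cells of WT, KO and KI held it at 197, 131 and 191 CPM against 28.4 to 42.2 CPM in the empty barcodes. It was highest in leptotene/zygotene-like cells, with 535, 369 and 441 CPM, apart from every other class. Its clusters 20 and 22 were close to each other, at 564 against 522 CPM (WT), 379 against 365 (KO) and 429 against 445 (KI). Pachytene-like cells held 128, 121 and 131 CPM, a range that overlapped that of SG-like cells. Late SP-like cells held 44.4, 57.5 and 57.3 CPM and RS-like cells 7.93, 13.9 and 11.8 CPM. The RS-like level lay below the empty barcodes. The thinned share of RS-like cells with a UMI, at 3.89%, 5.60% and 5.13%, lay below the 6.74%, 6.31% and 6.70% of Sertoli-like cells. It lay above the 0%, 0% and 1.99% of Leydig-like cells.

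Mov10l1 encodes the RNA helicase that feeds piRNA precursors to the cutting machinery (ENSMUSG00000015365, chr15:88982909-89055152). It was the only member whose highest cluster was cluster 20 in all 3 libraries, at 1098, 872 and 882 CPM in cluster 20 of WT, KO and KI against 480.0, 331 and 435 CPM in cluster 22. By class it stood at 459, 334 and 303 CPM in SG-like cells and at 669, 480.3 and 545 CPM in leptotene/zygotene-like cells. It stood at 104, 98.0 and 108 CPM in pachytene-like cells, 26.3, 36.3 and 30.9 CPM in late SP-like cells and 4.98, 8.71 and 4.05 CPM in RS-like cells. The ranges of the leptotene/zygotene-like, SG-like, pachytene-like and late SP-like classes stood apart from each other in that order. Sertoli-like cells held 39.5 to 108.9 CPM of Mov10l1 over the 3 libraries, a range that held the pachytene-like values and lay above the late SP-like ones. After thinning, a Mov10l1 UMI was found in 5.37%, 6.47% and 6.07% of Sertoli-like cells of WT, KO and KI. Pachytene-like cells gave 19.545%, 18.004% and 22.120%, and late SP-like cells 4.52%, 7.32% and 5.51%. By this share pachytene-like cells lay above Sertoli-like cells in every library, and late SP-like cells in KO only. The RS-like level lay below the empty barcodes (15.8 to 24.3 CPM).

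Tdrkh, also called Tdrd2, encodes a Tudor protein anchored in the mitochondrial membrane that holds PIWI proteins while piRNA ends are trimmed (ENSMUSG00000041912, chr3:94413273-94434668). Like Mov10l1 and Piwil2 it was present in SG-like cells (79.3, 126 and 146 CPM by library in the order WT, KO and KI) and highest in leptotene/zygotene-like cells, at 136, 159 and 162 CPM, and these ranges overlapped. Cluster 20 held 131, 188 and 173 CPM and cluster 22 139, 148 and 159 CPM. Pachytene-like cells held 45.7, 58.0 and 62.3 CPM. In late SP-like cells (16.3, 19.4 and 18.7 CPM) and RS-like cells (11.5, 12.8 and 12.1 CPM) it did not exceed the empty barcodes (17.8, 20.5 and 21.7 CPM).

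Tdrd1 and Tdrd5 encode Tudor proteins of the intermitochondrial cement and chromatoid body, of which TDRD1 binds MILI. Both followed Piwil1 rather than Piwil2 in clusters 20 and 22. Tdrd1 (ENSMUSG00000025081, chr19:56826209-56870012) was at 99.2, 47.9 and 62.2 CPM in cluster 20 of WT, KO and KI and at 498, 475 and 466 CPM in cluster 22. Tdrd5 (ENSMUSG00000060985, chr1:156255296-156303664) was at 135, 82.2 and 79.0 CPM in cluster 20 and at 354, 299.6 and 364 CPM in cluster 22. Pachytene-like cells held 263, 240.1 and 249 CPM of Tdrd1 and 199, 186 and 203 CPM of Tdrd5. For both genes the leptotene/zygotene-like range stood apart above the pachytene-like range, followed by SG-like and then late SP-like cells, each apart from the next. With a cluster resolution of 0.3 and without integration of the libraries, Piwil1, Tdrd1 and Tdrd5 were instead highest in pachytene-like cells. In both settings no cluster was named SG-like and the leptotene/zygotene-like class held 321 and 330 cells in all, and without integration a cluster of 603 cells with Piwil1 among its leading genes stayed unnamed. Late SP-like cells held 36.3, 59.8 and 43.7 CPM of Tdrd1 (43.1, 44.4 and 58.9 CPM in the empty barcodes) and 22.7, 35.7 and 29.6 CPM of Tdrd5 (20.4, 28.2 and 39.4 CPM in the empty barcodes). In RS-like cells Tdrd1, at 14.3, 14.9 and 13.1 CPM, and Tdrd5, at 2.11, 4.19 and 2.43 CPM, lay below the empty barcodes.

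Tdrd6 and Tdrd7 encode Tudor proteins needed for the architecture of the chromatoid body. With the classes used here both were highest in a later class than the members above. Tdrd6 (ENSMUSG00000040140, chr17:43615335-43630299) was at 93.3, 130.0 and 135 CPM in leptotene/zygotene-like cells of WT, KO and KI, below the empty barcodes of each library. It peaked in pachytene-like cells, at 362, 369.9 and 385 CPM, and its late SP-like range of 245, 277 and 293 CPM stood apart below. Within the late SP-like class cluster 18 held 300.2, 329.9 and 342 CPM and cluster 7 190.3, 195 and 227 CPM. RS-like cells held 72.8, 90.1 and 104 CPM, below the 114, 167 and 178 CPM of the empty barcodes of the same libraries.

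Tdrd7 (ENSMUSG00000035517, chr4:45965334-46034761) stood at 75.9, 74.3 and 86.0 CPM in SG-like cells of WT, KO and KI, at 113, 108 and 122 CPM in leptotene/zygotene-like cells and at 141, 149.7 and 161 CPM in pachytene-like cells. Late SP-like cells held 149, 166 and 184 CPM, which overlapped the pachytene-like range. RS-like cells held 68.5, 87.0 and 118 CPM, and the empty barcodes 75.5, 126 and 120.3 CPM. The SG-like levels of KO and KI and the leptotene/zygotene-like level of KO were also below the empty barcodes.

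Rnf17 encodes a Tudor protein with a RING finger that forms granules of its own in germ cells (ENSMUSG00000000365, chr14:56402581-56525032). It was at 421, 406 and 469 CPM in SG-like cells of WT, KO and KI and at 659, 658 and 700.6 CPM in leptotene/zygotene-like cells. Pachytene-like cells held 291, 311 and 336 CPM, and these 3 ranges stood apart. Late SP-like cells, with 199, 214 and 213 CPM, overlapped RS-like cells, with 192, 236 and 257 CPM. The empty barcodes held 151, 202 and 234 CPM, above the late SP-like level in KI. Within the RS-like class cluster 9, a cluster of shallow cells (median 2944.5 UMIs), held 746, 645 and 619.7 CPM, against 190.1, 263 and 284 CPM in cluster 4, which held 39.1% to 50.1% of the UMIs of the class. After thinning, Rnf17 UMIs were found in 38.6%, 46.3% and 48.3% of RS-like cells, against 13.7%, 21.9% and 14.1% of Sertoli-like cells.

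Mael encodes Maelstrom, a protein of the intermitochondrial cement and the chromatoid body (ENSMUSG00000040629, chr1:166201201-166238747). It was also the member of most UMIs in the empty barcodes, at 343, 524 and 504 CPM in the order WT, KO and KI. Leptotene/zygotene-like cells held 508, 563 and 539 CPM, pachytene-like cells 603, 659 and 693 CPM and late SP-like cells 478, 588 and 603 CPM, above the empty barcodes in each library. SG-like cells, with 179, 319 and 226 CPM, and RS-like cells, with 291, 413 and 436 CPM, lay below them. The thinned share of RS-like cells with a UMI, at 40.2%, 49.9% and 46.9%, was above that of Sertoli-like cells in WT (36.4%) and below it in KO (66.9%) and KI (54.7%), and it was above that of Leydig-like cells at 2.86%, 7.04% and 7.83%.

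**Figure D2:**
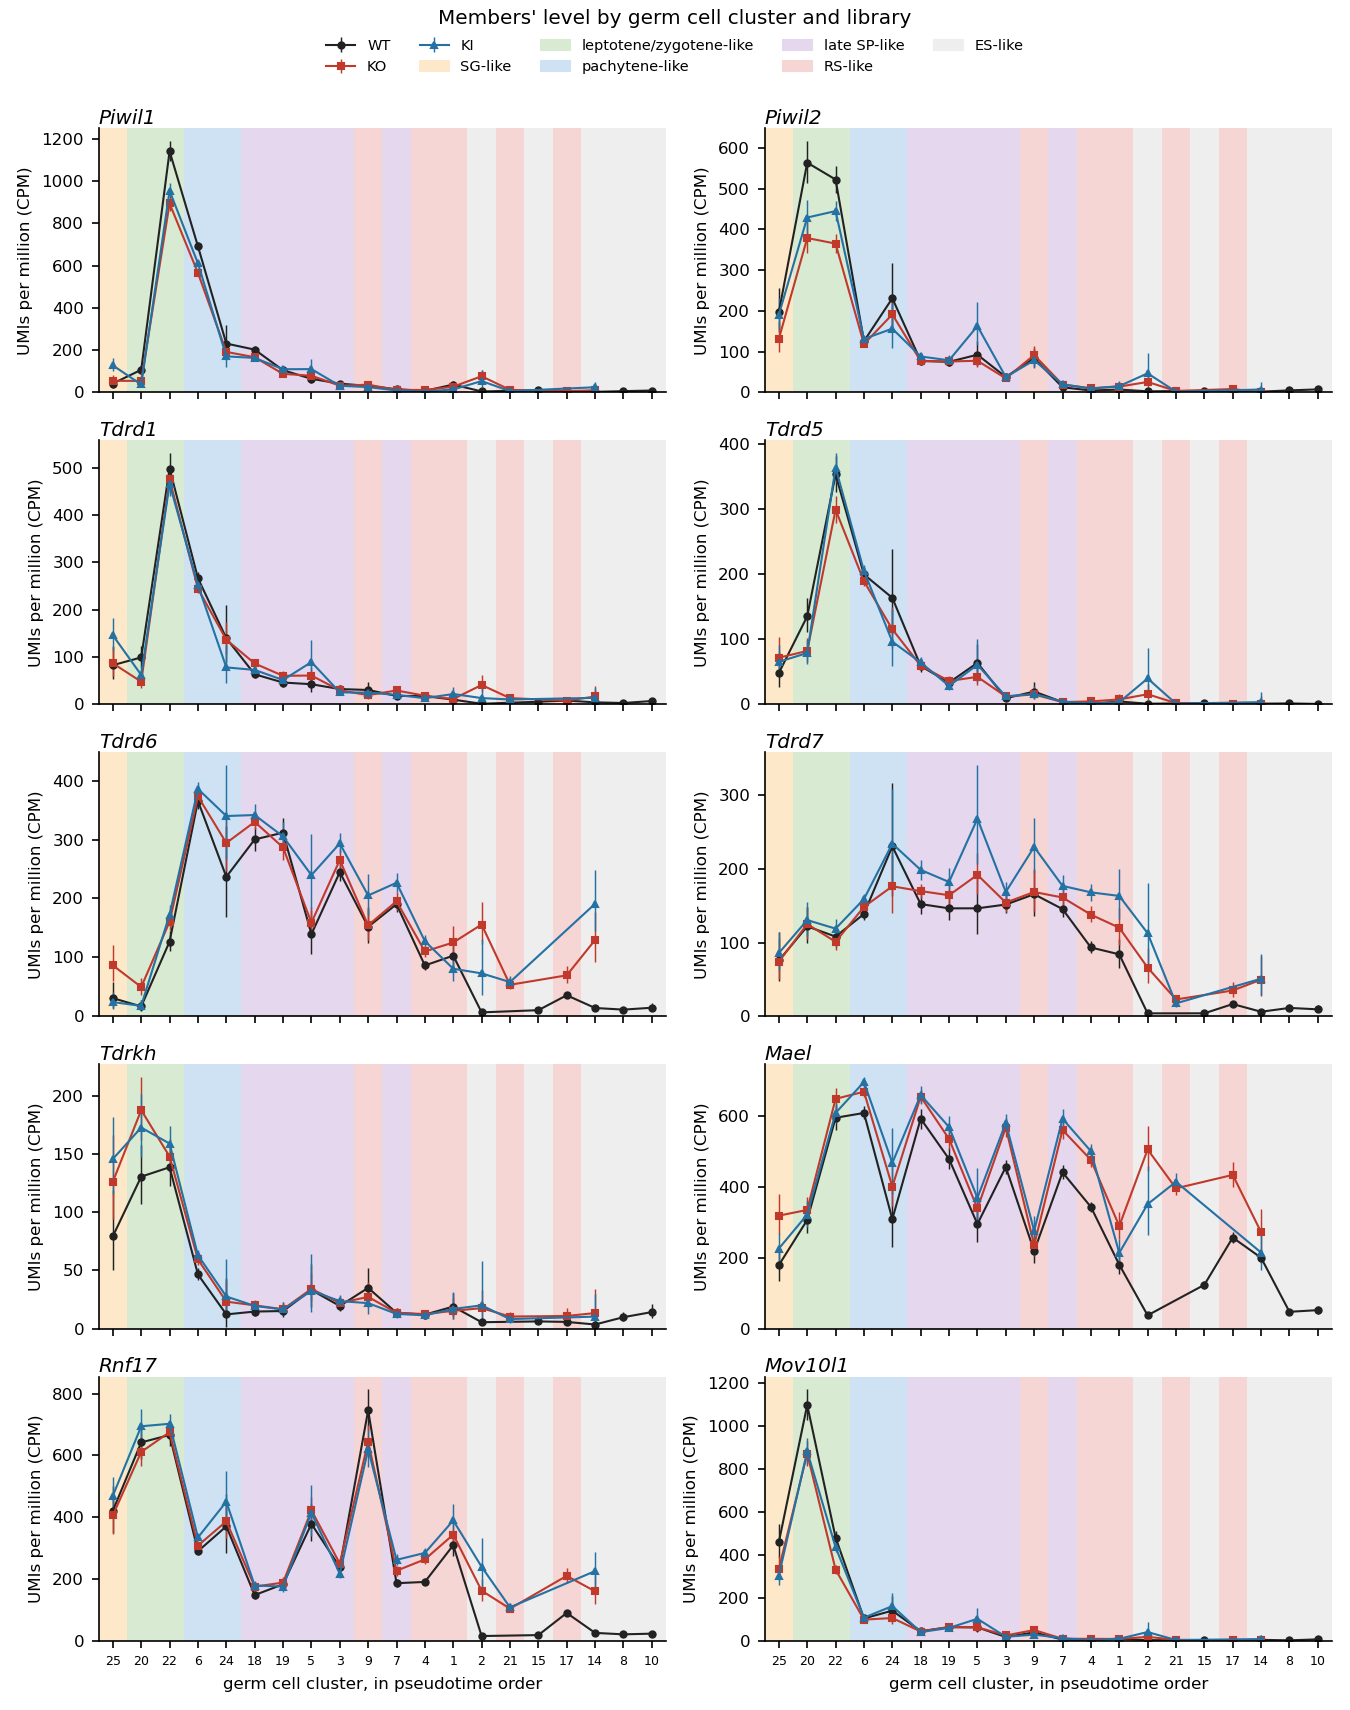
Level of each member (vertical axis, CPM) in the germ cell clusters in pseudotime order (horizontal axis, cluster numbers), with WT as circles, KO as squares and KI as triangles, exact Poisson 95% intervals as bars and the class of each cluster as shading. A library is drawn where it had at least 20 cells in the cluster. Mov10l1 peaked in cluster 20, Piwil1, Tdrd1 and Tdrd5 in cluster 22, and Tdrd6 in cluster 6, where it reached 365 to 386 CPM.

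The likeness of whole profiles was ranked over 18 points, the 6 germ cell classes of the 3 libraries, among 9003 genes of at least 50 CPM in some class, and is given as a description, since classes of 1 library share their mouse, run and depth. The genes most like Piwil1 were Pou2f2 (Pearson r 0.988), Gm14244 (0.987), Gm21269 (0.987), Arl14epl (0.984) and Psma8 (0.980), of which Psma8 encodes a proteasome subunit of SPs. Among members Tdrd5 (0.962, place 28) and Tdrd1 (0.955, place 41) were most like Piwil1 and Tdrd6 (0.522) least. The genes most like Piwil2 were Zc3h6 (0.992), Cbfa2t2 (0.992), Tardbp (0.990), Cwf19l2 (0.990) and Zswim8 (0.990). Among members Mov10l1 (0.975, place 59) was most like Piwil2, and Tdrd6 (0.240) again least. Tdrd1 (0.949) and Tdrd5 (0.947) were close to Piwil2 too, so their likeness was not particular to Piwil1. The 18 points include the ES-like class, which held other cells in the mutants.

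The genotypes were then compared class by class, as the log2 ratio of a mutant library to WT after 1 CPM was added to both. A gene was counted as apart where the ratio was at least 1.5-fold either way, and the share of all tested genes past that fold is given beside the counts of members. All KO and KI ratios share the same WT library. In pachytene-like cells 0 of 10 members were apart in KO, where 8.20% of all genes were, and 0 of 10 in KI, where 11.0% were. In leptotene/zygotene-like cells 0 of 10 were apart in KO (14.7% of all genes) and 0 of 10 in KI (12.0%). Cluster 6, which held most pachytene-like cells, had 0 members apart in KO (8.22% of all genes) and KI (10.9%), and cluster 22 had 0 in KO (14.2%) and KI (12.0%). Cluster 24, the small remainder of the pachytene-like class with 29, 55 and 21 cells, had 0 of 9 members apart in KO (32.2%) and 3 of 9 in KI (30.1%), Tdrd1 and Tdrd5 lower and Mael higher, from 17 to 102 UMIs each. In cluster 20, the earlier and shallower leptotene/zygotene-like cluster, 4 of 10 were apart in KO (24.3% of all genes) and 3 of 10 in KI (26.4%). Piwil1 (log2 −0.97 and −1.50), Tdrd1 (−1.03 and −0.67) and Tdrd5 (−0.71 and −0.77) were lower there in both mutants, and Tdrd6 was higher in KO (49.9 against 16.9 CPM in WT), at levels below the empty barcodes. Piwil1 in that cluster exceeded the empty barcodes in WT but not in KO or KI. The leptotene/zygotene-like count depended on how the class was drawn: with a cluster resolution of 0.3 it was 3 in KO (20.6% of all genes) and 1 in KI (23.2%), and without integration of the libraries 5 in KO (19.9%) and 1 in KI (24.2%).

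Below that fold the members did not lie at one value. In leptotene/zygotene-like cells Piwil2 (log2 −0.54, interval −0.64 to −0.43), Mov10l1 (−0.48, −0.57 to −0.38) and Piwil1 (−0.32, −0.40 to −0.23) were lower in KO than in WT by more than counting error. In KI they stood at −0.28 (−0.38 to −0.18), −0.30 (−0.39 to −0.21) and −0.18 (−0.26 to −0.10). Tdrd5 was likewise lower in KO (−0.26, −0.40 to −0.12) and stood at 0.04 in KI. Tdrd6 stood at 0.47 (0.26 to 0.70) in KO and 0.53 (0.31 to 0.75) in KI, at levels that the empty barcodes reached too. Tdrkh was also higher beyond counting error, at 0.22 in KO and 0.25 in KI, as were Mael in KO (0.15) and Rnf17 in KI (0.09). The median of the 10 members was −0.07 in KO and 0.06 in KI, against −0.02 over all genes in both.

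In pachytene-like cells, the germ cell class of most UMIs per cell (medians 29555, 32219 and 78174), the members spanned −0.31 to 0.34 in KO (median −0.02) and −0.18 to 0.44 in KI (median 0.07). Piwil1 was the lowest in both, at −0.31 (−0.36 to −0.25) in KO and −0.18 (−0.23 to −0.12) in KI. Tdrkh was the highest in both, at 0.34 (0.15 to 0.54) and 0.44 (0.26 to 0.64). Piwil2 stood at −0.08 and 0.04 and Mov10l1 at −0.08 and 0.05, so their lower leptotene/zygotene-like values in KO were not seen there. Whether any of these differences exceeds that between mice of 1 genotype cannot be told from 1 library each.

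**Figure D3:**
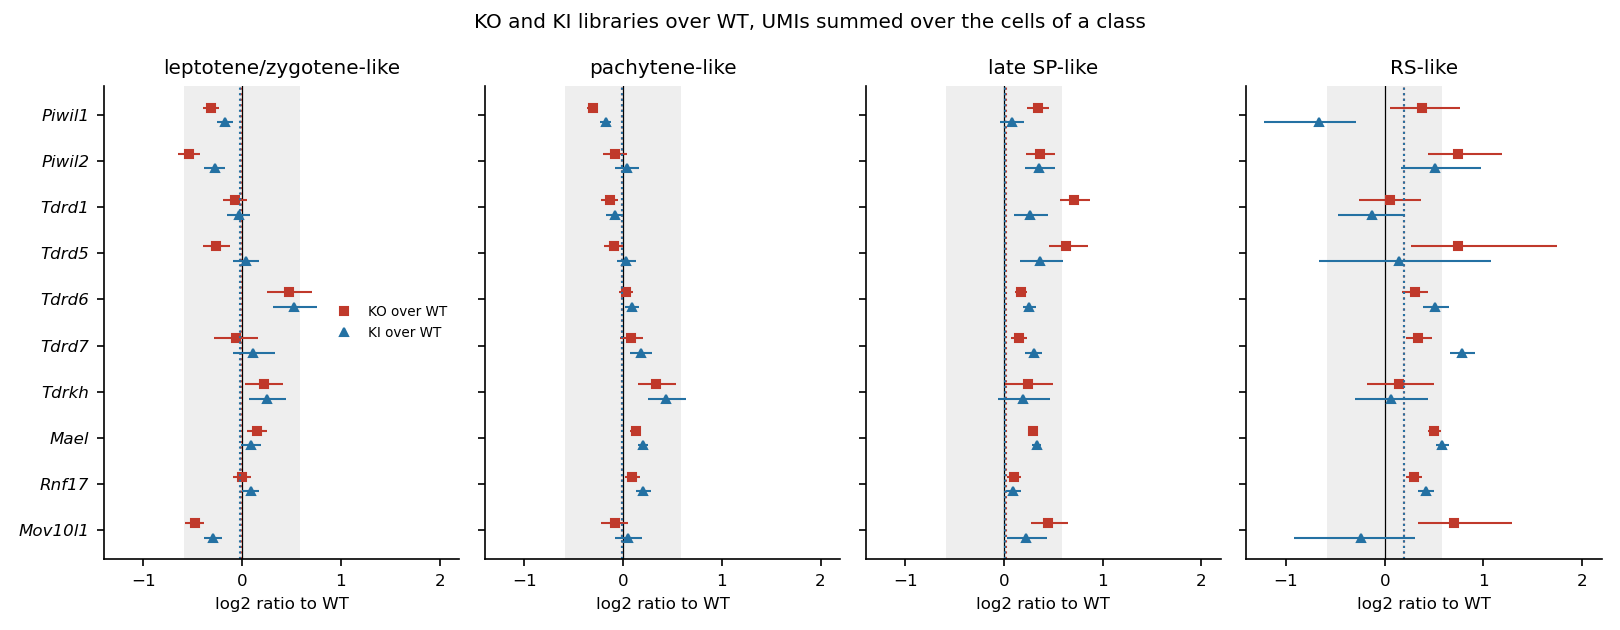
Log2 ratio of the KO (squares) and KI (triangles) library to WT for each member in 4 germ cell classes, with 1 CPM added and 95% intervals for counting error as bars. The gray band spans 1.5-fold either way and dotted lines mark the median over all tested genes. Leptotene/zygotene-like and pachytene-like values lie within the band for all 10 members, late SP-like values lie above 0, and the widest intervals are those of the low RS-like levels.

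In late SP-like cells all 10 members lay above WT in both mutants, with a median log2 ratio of 0.32 (range 0.11 to 0.71) in KO and 0.26 (0.08 to 0.37) in KI, against 0.02 over all genes in both. In KO 2 of 10 members, Tdrd1 (0.71, interval 0.57 to 0.88) and Tdrd5 (0.63, 0.46 to 0.85), were apart, where 16.6% of all genes were apart either way and 6.12% were higher. In KI 0 of 10 were apart, where 14.4% of all genes were, and the intervals of Piwil1 (0.08) and Tdrkh (0.19) held 0. Mael stood at 0.30 (0.25 to 0.34) and 0.33 (0.29 to 0.38). The empty barcodes also held more of all 10 members in both mutants than in WT, and its part in these ratios was not tested. Late SP-like Tdrkh lay below the empty barcodes in all 3 libraries, Piwil1 and Tdrd1 in WT and KI, and Tdrd5 and Rnf17 in KI.

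The make-up of that class differed between the libraries. Cluster 18, the late SP-like cluster nearest to pachytene in pseudotime, held 20.4% of the UMIs of the class in WT, 42.9% in KO and 30.2% in KI, and cluster 7, nearest to spermatids, 32.6%, 19.3% and 23.9%. Piwil1 stood at 202, 166 and 163 CPM in cluster 18, where KO and KI were thus lower than WT. Cluster 5, of 200 WT, 421 KO and 40 KI cells, was shallow, with medians of 1558, 1937 and 4713.5 UMIs. Mitochondrial genes led it, at a median of 7.56% of UMIs. It had 0 of 10 members apart in KO (20.7% of all genes). In KI it had 6 of 10, all higher (18.1% of all genes), namely Piwil1, Piwil2, Tdrd1, Tdrd6, Tdrd7 and Mov10l1. Of these, Piwil1 was at 63.8 CPM in WT and 109.7 in KI, each from 27 UMIs and below the empty barcodes of its library. With the libraries summed, Tdrd6 in cluster 5 (166 CPM, 272 UMIs) lay within its empty barcode range. Piwil2, Tdrd1, Tdrd7 and Mov10l1 lay above theirs, from 154, 99, 314 and 111 UMIs. In cluster 7 Tdrd1 and Mov10l1 were higher in KO, 2 of 10 (23.1% of all genes apart), and in KI Piwil2 and Mov10l1 were higher and Piwil1 lower, 3 of 10 (25.8%). Clusters 18, 19 and 3 had 0 of 10 apart in KO (11.5%, 11.9% and 14.9%) and in KI (13.5%, 15.9% and 17.0%). When the clusters were averaged with their WT shares as weights, a choice made after seeing the data, the KO median went from 0.32 to 0.14 and 0 of 10 members were apart, where 9.16% of all genes were. Tdrd1 was then at 0.35, Tdrd5 at 0.04 and Piwil1 at −0.28 in KO. In KI the median went from 0.26 to 0.17, and Piwil1 was at −0.22. Mael kept most of its value, with 0.26 in KO and 0.31 in KI, and Tdrd7 was at 0.12 and 0.29.

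**Figure D4:**
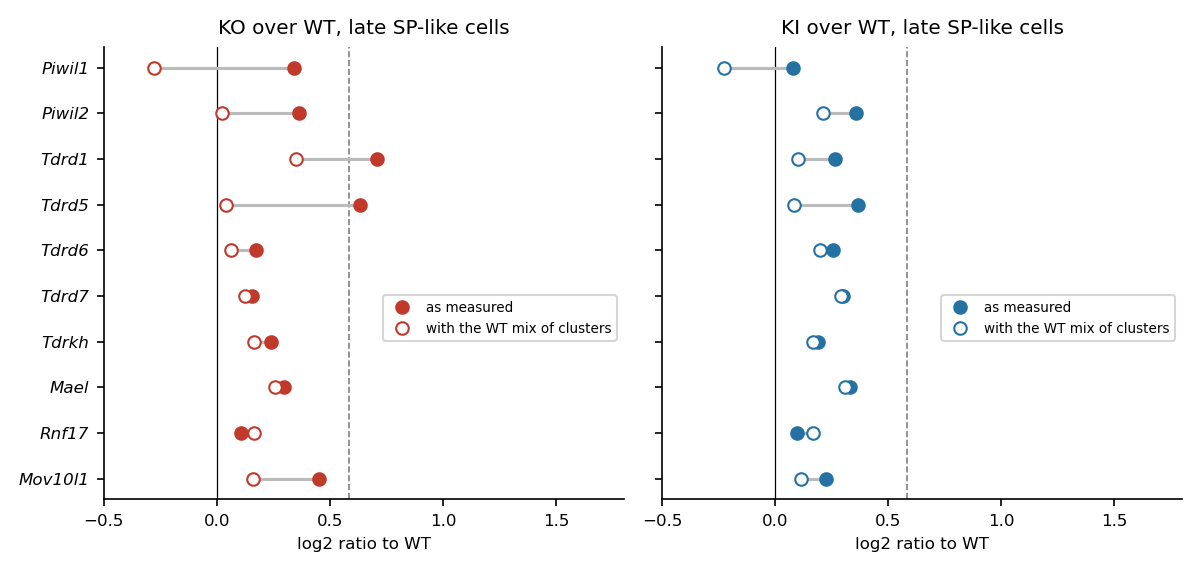
Log2 ratio to WT of each member in late SP-like cells (horizontal axis) as measured (filled) and with the clusters averaged by their WT shares (open), for KO (left) and KI (right). The dashed line marks 1.5-fold. Piwil1 moves from 0.34 to −0.28 in KO, and Mael only from 0.30 to 0.26.

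In RS-like cells, where the chromatoid body is found, 3 of 10 members (Piwil2, Tdrd5 and Mov10l1) were apart in KO, all higher, where 31.3% of all genes were apart and 22.4% were higher. In KI 2 of 10 were apart, Tdrd7 higher and Piwil1 lower, where 32.1% of all genes were apart and 22.8% were higher. These counts are near the share of all genes and are no result about the members. With TMM scaling, which takes up the shift of all genes, 0 were apart in KO (28.5% of all genes) and 1 in KI (29.0%). The median over all genes was itself at 0.20 in KO and 0.19 in KI, so that values should be read against that shift. All members but Rnf17 lay below the empty barcodes of their library in these cells.

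Tdrd1 stood at 0.05 in KO and −0.13 in KI and Tdrkh at 0.15 and 0.07, all with intervals that held 0. Tdrd7 stood at 0.34 (0.21 to 0.48) in KO and 0.78 (0.66 to 0.92) in KI, and thinned cells with its UMI made up 15.7% (WT), 19.7% (KO) and 25.9% (KI). The KI value of Tdrd7 was short of 1.5-fold with TMM scaling (0.54), without integration (0.58) and where each cell took the class of its own highest marker score (0.39). With that last choice the 10 members had a median of 0.09 (KO) and −0.07 (KI), against 0.09 and 0.07 over all genes. Mael stood at 0.50 (0.44 to 0.57) and 0.58 (0.52 to 0.65), Tdrd6 at 0.31 and 0.51, and Rnf17 at 0.29 and 0.42. The empty barcodes moved the same way, since the free RNA of each of these genes was also higher in KO and KI than in WT, and its part in the RS-like values was not tested.

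The RS-like class differed in make-up as well. Cluster 17 held 35.7% of its UMIs in WT but 11.7% in KO and 9.50% in KI, and cluster 21 held 1.01%, 35.0% and 27.5%. In cluster 4, the largest by UMIs of those that all libraries shared, 4 of 10 members were apart in KO (36.6% of all genes). All 4 were higher (24.6% of all genes), namely Piwil1 (0.60), Piwil2 (1.01), Tdrd5 (1.72) and Mov10l1 (1.37). Tdrd5 held only 32 UMIs and Mov10l1 61 in this cluster over the 3 libraries, so their ratios rest on few counts. In KI 3 of the 9 members tested there were apart (40.2% of all genes), namely Piwil1 (−0.80), which was lower, and Piwil2 (0.91) and Tdrd7 (0.84), which were higher. Cells of that cluster held Tdrd7 at 93.5, 138 and 168 CPM by library, or log2 0.56 and 0.84, and Mael at 344, 477 and 502 CPM, or 0.47 and 0.54. The median over all genes of cluster 4 was 0.19 in KO and 0.18 in KI. Clusters 9 and 1, of fewer UMIs per cell, were shared too. In cluster 9, 1 of 10 was apart in KO (Tdrd1, lower, 23.3% of all genes) and 1 of 10 in KI (Tdrkh, lower, 29.9%), and the median of the members was 0.03 and −0.28. In cluster 1, Mael was higher in KO, 1 of 6 tested (40.4% of all genes), and in KI Tdrd1 and Tdrd7 were higher and Piwil1 lower, 3 of 7 (38.8%). Cluster 17, of 196 WT and 53 KO cells, had too few KI cells (17) to compare. In KO 5 of 7 tested members were apart there, all higher (51.9% of all genes apart, 37.7% higher). They were Tdrd6, Tdrd7, Tdrkh, Mael and Rnf17. The median of the members tested was 0.82, against 0.34 over all genes.

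SG-like cells were few, and 3 of 10 members (Tdrd6, Tdrkh and Mael) were apart in KO, where 31.5% of all genes were. In KI 4 of 10 (Piwil1, Tdrd1, Tdrkh and Mov10l1) were apart, where 24.7% were. Of these, Tdrd6, Mael and Piwil1 lay below the empty barcodes of every library. Mov10l1 stood at −0.46 (−0.81 to −0.10) in KO and −0.60 (−0.94 to −0.26) in KI, lower in both beyond counting error. Where each cell took the class of its own highest marker score it stood at 0.07 and 0.39, and with TMM scaling the KI value was short of 1.5-fold. Tdrkh stood at 0.66 (−0.07 to 1.45) and 0.87 (0.19 to 1.62).

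ES-like cells could not be compared in this way. Clusters 8 and 10 held 582 and 570 WT cells but 11 and 1 KO and 2 and 0 KI cells, so that the class held other cells in the mutants. Members in WT ES-like cells stood at 0.0616 to 0.376 times their level in the WT empty barcodes (median 0.106), lower than free RNA for all 10. In KO these quotients were 0.286 to 0.852 (median 0.596) and in KI 0.222 to 0.944 (median 0.537). Mael was at 99.4, 398 and 255 CPM in ES-like cells by library, and Piwil1 at 5.58, 44.4 and 32.1 CPM.

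Other genes of the pathway were described by counts over lists fixed by name, beside the same shares of all genes as for the members. Of 15 genes of the mitochondrial surface and PIWI partners, Tex15 was higher and Pnldc1 lower in KO leptotene/zygotene-like cells (13 tested, 14.7% of all genes apart), and Tex15 was higher in KI (13 tested, 12.0%). Tex15, a gene of piRNA-directed silencing and of meiotic repair, was at 109.6, 249.8 and 232 CPM by library. Ddx4, the RNA helicase also known as Vasa, was at 732, 670.1 and 718 CPM in the same cells. In pachytene-like cells 0 of 14 were apart in KO (8.20% of all genes) and 1 of 14 (Tex19.1, higher) in KI (11.0%). In late SP-like cells 5 of 13 were apart in KO, of which Pnldc1, Gpat2, Spocd1 and Morc1 were higher and Tex15 lower (16.6% of all genes apart, 6.12% higher), and in KI 2 of 13 (Gpat2 and Morc1, both higher, 14.4% of all genes apart). Gpat2, a mitochondrial acyltransferase needed for piRNA production, was at 9.26 CPM in WT cells of this class, with log2 ratios of 0.97 and 0.71, and Morc1, needed for transposon silencing, was at 6.15 CPM, with 0.83 and 1.34. The WT empty barcodes held 8.98 CPM of Gpat2 and 0.97 CPM of Morc1.

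In RS-like cells 6 of 13 genes of that list were higher in KO, where 22.4% of all genes were, and in KI 5 of 12 were higher, where 22.8% were, and 1 (Henmt1, the piRNA methyltransferase) was lower. Those higher in both were Exd1 (3.29, 6.03 and 5.98 CPM), Gpat2 (1.77, 3.43 and 4.36 CPM), Spocd1 (1.60, 3.27 and 4.05 CPM) and Morc1 (3.88, 9.21 and 16.8 CPM). All of them were low in WT RS-like cells, with 19 to 46 UMIs each, and Exd1, Gpat2 and Spocd1 did not exceed the WT empty barcodes (10.9, 8.98 and 1.70 CPM). The median of the list was 0.53 in KO and 0.43 in KI in RS-like cells, where that of all genes was 0.20 and 0.19, and 0.05 and 0.13 in pachytene-like cells, where that of all genes was −0.01 in both.

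Of 16 chromatoid body and RNA turnover genes besides Ddx25, 0 of 15 tested were apart in KO pachytene-like cells (8.20% of all genes) and 1 of 15 (Upf1, lower) in KI (11.0%). Upf1, the helicase of nonsense-mediated decay, was at 126, 86.9 and 82.3 CPM by library, and Ybx2, an RNA-binding protein of germ cells, at 1270.3, 1283 and 1253 CPM. In leptotene/zygotene-like cells 0 of 16 were apart in KO (14.7% of all genes) and 1 of 16 (Kif17, lower) in KI (12.0%). In late SP-like cells Stk31 and Ago1 were higher in KO (16.6% of all genes apart) and Upf1 was lower in KI (14.4%), of 15 tested in each. In RS-like cells Ago1 and Snd1 were higher in both mutants and Prmt5 in KO, which makes 3 of 16 in KO (31.3% of all genes apart) and 2 of 15 in KI (32.1%). Ago1, an Argonaute, was at 0.506, 3.27 and 2.63 CPM and Snd1, a Tudor nuclease, at 3.71, 9.80 and 8.72 CPM there. Both were low in WT RS-like cells, a class of 11848098 UMIs. Ago1 in WT lay below the 1 CPM added to both libraries, so its ratios rest on few WT counts. Empty barcode levels of both genes are not given here, and the part of free RNA in their values was not tested. RS-like cells gave the list a median of 0.06 (KO) and 0.16 (KI), no higher than over all genes.

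The regulators of pachytene piRNA genes were Mybl1, Tcfl5 and Btbd18. In either mutant 0 of 3 tested were apart in leptotene/zygotene-like cells, and 0 of 2 tested in pachytene-like and in late SP-like cells. In these classes 8.20% to 16.6% of all genes were apart. Mybl1 was at 159.5, 148 and 164 CPM in leptotene/zygotene-like cells of WT, KO and KI, at 108, 112 and 120.0 CPM in pachytene-like cells and at 57.8, 79.4 and 79.2 CPM in late SP-like cells. In RS-like cells it was higher in both mutants, at 5.23, 10.1 and 10.1 CPM, where 22.4% and 22.8% of all genes were higher. Tcfl5, the other transcription factor of the list that was present through meiosis, was at 606, 675 and 681 CPM in pachytene-like cells.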

How the data were processed

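Testicular cells of WT, KO and KI mice were sequenced as 1 droplet library each. The authors deposited raw UMI counts per gene and barcode. The processing notes name Cell Ranger 2.1.1 and mm10, whereas the headers of the deposited matrices name a later major version, and the labels and the study's methods name different sequencers. The list of all barcodes was deposited, not only called cells.

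Cells were called here with a knee rule plus a comparison with empty barcodes (ranks 45000 to 90000) among barcodes of at least 500 UMIs, at most 20000 per library (35721 qualified in KO). A cell was kept above 500 genes if mitochondrial UMIs stayed below 10%. Doublets were kept, and leaving out cells marked by Scrublet was an alternative. Libraries were integrated with sctransform 0.4.2 and Seurat 5.3.0 in R 4.3.3 (2000 genes, 100 components) and clustered with Leiden at resolution 1.0 (scanpy 1.11.5, leidenalg 0.10.2, Python 3.11.15) into 27 clusters, 20 of them germ cells. Clusters were named from marker lists, and how the scores were turned into names was settled after the clusters were seen. Of these, 2 stayed unnamed (462, 431 and 172 cells): cluster 11, with few UMIs per cell and no marker of its best class among its 10 leading genes, and cluster 13, whose best and next marker scores did not differ by the 0.1 required.

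UMIs were summed per class and library and divided by the class total (CPM). Log2 ratios took 1 CPM added, with exact conditional intervals, and genes with at least 20 UMIs over both libraries entered the share of all genes apart. No p-value was computed, since each genotype has 1 library. Differences in UMIs per cell, genotype and run cannot be told apart. The calculation was run on simulated Poisson counts drawn from WT class proportions, without variation between cells, clusters or mice. That run checks the arithmetic only, since the intervals assume the same counting model. Library totals were 82973909, 91388296 and 73150373 UMIs, and UMIs of 1 cell are not independent replicates.

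All 10 members are described. Other pathway genes were named where at least 1.5-fold apart the same way in KO and KI, and those named beyond this rule were chosen after their values were seen. Likeness took the 5 genes of highest Pearson r of log2(CPM + 1). Members and lists were chosen with earlier results of these data known. Gene positions are from GENCODE M21 and promoters from RefSeq.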

Additional observations from a re-analysis of the deposited data

Results flagged for a closer look

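The KO or KI values of several members lay on opposite sides of WT in leptotene/zygotene-like and late SP-like cells, with both intervals clear of 0. In KO the log2 ratio went from −0.32 to 0.34 for Piwil1, a difference of 0.66 between the classes. It went from −0.54 to 0.36 for Piwil2 (0.90), from −0.26 to 0.63 for Tdrd5 (0.89) and from −0.48 to 0.45 for Mov10l1 (0.93). In KI it went from −0.28 to 0.36 for Piwil2 (0.64) and from −0.30 to 0.22 for Mov10l1 (0.52). Each genotype was 1 library, so the difference between classes was not tested. The make-up of the late SP-like class differed between libraries, and with its clusters averaged by their WT shares the late SP-like values were −0.28, 0.02, 0.04 and 0.16 in KO for Piwil1, Piwil2, Tdrd5 and Mov10l1, and 0.21 and 0.11 in KI for Piwil2 and Mov10l1.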

How the results depend on the processing

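Counts of members at least 1.5-fold from WT depended on how classes were drawn, and the share of all genes past that fold, given in brackets, moved too. The KO count in SG-like cells went from 3 (31.5%) to 5 (36.0%) with cells called by their UMI total alone. In leptotene/zygotene-like cells it went from 0 (14.7%) to 3 at resolution 0.3 (20.6%) and to 5 without integration (19.9%), and the KI count from 0 (12.0%) to 1 under both (23.2% and 24.2%). In pachytene-like cells the KI count went from 0 (11.0%) to 1 (20.5%) where each cell took the class of its own highest marker score. In late SP-like cells the KO count of 2 (16.6%) went to 1 at resolution 0.3 (15.3%) and to 0 without integration (9.62%), with own marker scores (8.83%), and with the WT mix of clusters (9.16%). In RS-like cells the KO count of 3 (31.3%) went to 0 with TMM scaling (28.5%) and to 1 without integration (27.0%) and with own marker scores (31.1%). The RS-like KI count of 2 (32.1%) went to 1 with TMM (29.0%), without integration (27.7%) and without clusters of few UMIs (33.2%), and to 4 with UMI totals alone (37.5%) and at resolution 0.3 (39.9%). With own marker scores it stayed 2 with Mov10l1 in place of Tdrd7. Of the other counts, 98 were within 1.5 times. The cause of these moves was not tested.

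Of the log2 ratios under alternatives, 907 stayed within the counting interval, and 67 of 1060 changed sign, among them Piwil1 in late SP-like cells with the WT mix (KO −0.28, KI −0.22). Of values at least 1.5-fold apart, 2 changed sign, both for Mov10l1 with own marker scores: KI SG-like to 0.39 and KO RS-like to −0.11. The class of the highest level was kept in 220 of 240 settings. Piwil1, Tdrd1 and Tdrd5 peaked in pachytene-like cells at resolution 0.3 and without integration, and Tdrd7 of WT and KI without integration. ES-like ratios to WT were left out, since 24 of 220 values under alternatives changed sign (range −4.72 to 3.87). The 3 alternatives on shared barcodes, WT mix and low-UMI clusters were chosen after seeing the data. No paired analysis was possible because the labels give each genotype 1 library, so only 1 number is shared. SG-like classes held 289876, 403912 and 534935 UMIs, which limits their precision.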
